A study of Mus musculus with 8 samples.

Results

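Fat cell genes were followed in RNA-Seq libraries of whole mouse lung. They were the 10 genes Adipoq, Cfd, Lep, Plin1, Plin4, Cidec, Fabp4, Car3, Pparg and Ucp1, taken by symbol from the 23469 genes of the count table, and all 10 had a row in it. The list was selected on measured values of these libraries. Adipoq, Cfd, Car3, Plin1 and Fabp4 were put forward by the difference between the genotypes under PBS, so that their levels in the PBS-treated mice are given as a description with no test.

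Fat cells store triglyceride in a single large droplet and release fatty acids from it on hormonal demand. They also secrete hormones such as adiponectin and leptin, and their identity depends on the nuclear receptor PPARG, which binds together with C/EBP factors at many fat cell genes. White and brown fat lie in the mediastinum and around the hilum of the mouse lung, while lung parenchyma itself holds few fat cells. Several of the genes are not exclusive to fat cells. Pparg is also expressed by alveolar macrophages, Fabp4 by capillary endothelium and macrophages, and Car3 by slow skeletal muscle.

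The libraries came from C57BL/6 wild type mice (WT) and DDAH1-transgenic mice (TG), which overexpress dimethylarginine dimethylaminohydrolase 1, the enzyme that degrades the nitric oxide synthase inhibitor ADMA. Mice of each genotype received house dust mite extract (HDM, 100 µg) or its vehicle PBS into the trachea in a volume of 50 µl, on 3 occasions in each of 3 weeks, and the lungs were taken 24 hours after the last instillation. The RNA of 4 mice was pooled in each of the 4 groups, amplified, and sequenced as 2 libraries. The age and sex of the mice and the promoter of the transgene are not given in the sources used here. Each SD below is therefore the spread between 2 libraries of 1 pool, not between mice, and p-values measure only that technical spread.

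Total counts lay between 5694928 and 11929374 per library, the lowest being replicate 1 of the HDM-treated TG mice. Levels are given as CPM, the counts scaled to library size by edgeR's TMM method over all 8 libraries, and 3 counts came to between 0.233 and 0.447 CPM. Ddah1, the transgene's gene, stood at 41.0 ± 9.39 CPM (SD, n = 2) in PBS-treated WT mice and at 65.4 ± 16.6 CPM in PBS-treated TG mice. After HDM it stood at 43.9 ± 1.15 CPM in WT mice and at 34.1 ± 0.947 CPM in TG mice, and both TG libraries lay below both WT libraries. Groups are named by their labels throughout, also the HDM-treated TG mice, in which Ddah1 was not higher. Xist, transcribed from the inactive X chromosome of females, lay between 11.3 and 20.8 CPM in the PBS libraries and between 2051 and 3028 CPM in the HDM libraries. Ddx3y, a gene of the Y chromosome, lay between 58.7 and 68.9 CPM in the PBS libraries against 2 or 3 counts per library after HDM. Sex and HDM treatment cannot be told apart in any comparison between HDM and PBS. The same holds where a genotype difference under HDM is set beside that under PBS.

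Libraries of the same pool did not agree equally well. In the HDM-treated TG pool, replicate 2 held far more Plin1, Adipoq and Cfd than replicate 1, and far less Fabp4 and Car3, as set out below. The results that rest on this pool are given with each of its libraries left out.

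The windows directly upstream of the annotated starts of 4 of the genes are printed here, Adipoq and Cfd because they differed most between the genotypes under PBS, and Lep and Ucp1 because they had no counts in HDM-treated WT and PBS-treated TG mice. The sequences are from RefSeq on build GRCm38 (mm10), 250 bases each, on the plus strand. Adipoq is at chr16:23146286-23146535, Cfd at chr10:79890603-79890852, Lep at chr6:29059971-29060220 and Ucp1 at chr8:83290098-83290347, and each window ends at the base before the gene. Capitals mark matches on either strand to AGGTCA, the repeat bound by nuclear receptors such as PPARG, to TTGCNNAA, the C/EBP consensus, to CCAAT, or to TATAAA.
Adipoq: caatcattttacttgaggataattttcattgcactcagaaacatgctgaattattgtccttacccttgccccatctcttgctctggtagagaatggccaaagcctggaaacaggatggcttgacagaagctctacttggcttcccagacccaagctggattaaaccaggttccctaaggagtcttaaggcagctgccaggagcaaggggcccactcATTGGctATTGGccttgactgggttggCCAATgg
Cfd: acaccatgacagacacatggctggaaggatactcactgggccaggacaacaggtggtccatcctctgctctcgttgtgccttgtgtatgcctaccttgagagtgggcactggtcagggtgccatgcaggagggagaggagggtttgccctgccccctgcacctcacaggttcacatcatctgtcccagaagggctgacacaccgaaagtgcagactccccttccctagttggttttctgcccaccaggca
Lep: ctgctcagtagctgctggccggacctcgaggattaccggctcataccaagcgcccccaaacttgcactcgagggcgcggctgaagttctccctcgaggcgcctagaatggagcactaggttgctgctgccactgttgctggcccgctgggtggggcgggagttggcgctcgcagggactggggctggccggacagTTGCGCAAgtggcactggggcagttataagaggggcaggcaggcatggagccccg
Ucp1: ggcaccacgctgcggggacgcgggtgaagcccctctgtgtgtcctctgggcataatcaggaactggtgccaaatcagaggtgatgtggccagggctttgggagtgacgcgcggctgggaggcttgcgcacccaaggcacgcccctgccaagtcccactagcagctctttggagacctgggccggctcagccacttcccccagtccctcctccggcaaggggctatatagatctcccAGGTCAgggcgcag

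The Adipoq window held 3 matches to CCAAT, at 7, 27 and 34 bases before the start, the first on the same strand as the gene and the others on the opposite strand. The match to TTGCNNAA in the Lep window begins 55 bases before the start and reads the same pattern on both strands. The match to AGGTCA in the Ucp1 window begins 14 bases before the start, and the Cfd window held no match. Promoter windows were at hand for 8 of the 10 genes, those of Car3 and Fabp4 being the others. Over all windows of a gene, AGGTCA was present for Ucp1 and Pparg and in 14.0% of all 32851 promoters of the same length. TTGCNNAA was present for Plin1, Lep, Cidec and Pparg and in 9.56% of all promoters. CCAAT was present for Adipoq, Plin4 and Pparg and in 33.8% of all promoters, and TATAAA for Pparg and in 12.4%. A pair of AGGTCA copies separated by 1 base, the arrangement that PPARG binds with its partner RXR, was in none of the 8 genes' windows and in 0.0335% of all promoters. These are matches of letters in a short window only.

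Levels of different genes were compared per kilobase of transcript, although the authors counted only coding bases. The transcript length also holds bases outside the coding region. The order and the overlaps given here could therefore differ per kilobase of coding region, which was not tested. In PBS-treated WT lungs, Car3 stood highest at a mean of 95.1 CPM per kilobase. Cfd at 28.3 and Fabp4 at 26.7 CPM per kilobase came next, and their libraries overlapped. Cidec stood at 12.6, Pparg at 7.72, Adipoq at 6.06, Plin1 at 5.24 and Plin4 at 2.44 CPM per kilobase, and only the neighbours Pparg and Adipoq, and Adipoq and Plin1, overlapped among these 5. Ucp1 at 0.794 and Lep at 0.392 CPM per kilobase were at the bottom of the list and overlapped. The fat cell genes were thus counted in the WT lung over a range that left Lep and Ucp1 too low for the low-count filter, and the other 8 genes were tested in all comparisons.

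Adipoq, at chr16:23146536-23157968, encodes adiponectin, a hormone secreted almost exclusively by fat cells. It had 100 and 69 counts in PBS-treated WT mice, 43 and 22 in HDM-treated WT mice, 11 and 0 in PBS-treated TG mice, and 18 and 174 in HDM-treated TG mice. These came to 7.83 ± 3.10 CPM, 3.03 ± 1.16 CPM, 0.551 ± 0.779 CPM and 8.09 ± 7.64 CPM. The PBS-treated WT libraries lay above both HDM-treated WT libraries, which in turn lay above both PBS-treated TG libraries, while the HDM-treated TG libraries spanned most of that range. The log2 fold change of TG against WT under PBS was -3.80 ± 1.01 (SE), and the library with 0 counts allows up to 0.317 CPM.

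Cfd, at chr10:79890853-79892655, encodes adipsin, the complement factor D that fat cells secrete. It had 237 and 348 counts in PBS-treated WT mice, 126 and 120 in HDM-treated WT mice, 44 and 32 in PBS-treated TG mice, and 20 and 172 in HDM-treated TG mice. The mean level was 26.1 ± 3.31, 11.7 ± 0.562 and 3.89 ± 0.726 CPM in the first 3 of these groups, which did not overlap, and 8.16 ± 7.32 CPM in HDM-treated TG mice. Replicate 1 of the HDM-treated TG mice was the lowest of the 8 libraries at 2.98 CPM, and replicate 2 lay above both HDM-treated WT libraries at 13.3 CPM. On the log2 scale, Cfd differed by -2.75 ± 0.42 (SE) between TG and WT mice under PBS.

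Lep, at chr6:29060221-29073876, encodes leptin, the satiety hormone of fat cells. It had 19 and 8 counts in PBS-treated WT mice and 0 counts in the other 6 libraries. With 3 counts taken for each library at 0, its mean in PBS-treated WT mice was 4.15-fold above PBS-treated TG mice. It was 4.49-fold above HDM-treated WT mice. These limits leave out the counting error of the WT counts. The 95% Poisson interval of the library with 8 counts begins at 0.282 CPM, below the 0.300 and 0.317 CPM of 3 counts in PBS-treated TG mice. With replicate 1 of the PBS-treated WT mice alone these limits were 6.17-fold and 6.68-fold, and with replicate 2 alone 2.12-fold and 2.29-fold. A count of 0 covers sampling error only, and with 8 counts in the deeper of the WT libraries, a smaller difference would not have been detectable.

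**Figure D1:**
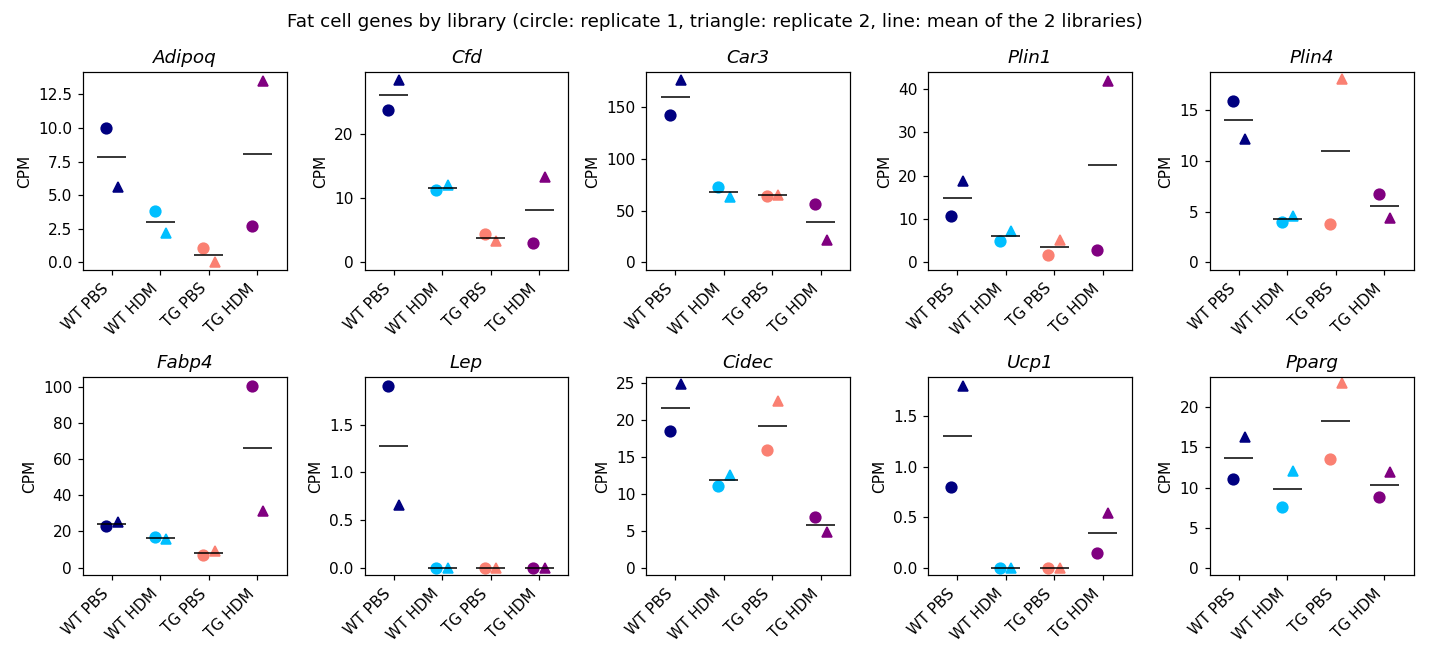
Level of each of the 10 genes in CPM (vertical axis, linear) in the 2 libraries of each group (circle, replicate 1; triangle, replicate 2), with a line at the mean. Adipoq, Cfd and Plin1 are lowest in PBS-treated TG mice by the mean and stand far apart in the 2 libraries of HDM-treated TG mice, whereas Cidec and Pparg are not lower in PBS-treated TG mice than in WT mice beyond their spread.

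Among the proteins of the fat droplet, Plin1 encodes perilipin 1, which coats the droplet of fat cells and controls access of lipases. It lies at chr7:79721164-79732904, and 0.325% of the 50-base stretches of its transcript occur in other genes too. Plin1 had 107 and 230 counts in PBS-treated WT mice, 55 and 72 in HDM-treated WT mice, 18 and 50 in PBS-treated TG mice, and 19 and 541 in HDM-treated TG mice. The means were 14.8 ± 5.71, 6.08 ± 1.64, 3.54 ± 2.46 and 22.4 ± 27.6 CPM. Both PBS-treated WT libraries lay above the HDM-treated WT and the PBS-treated TG libraries, which overlapped each other. The difference between the genotypes under PBS was -2.07 ± 0.58 (log2 fold change ± SE).

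Plin4, at chr17:56100587-56109948, encodes perilipin 4, a coat protein of small nascent droplets, and overlaps the gene Hdgfl2. It had 159 and 149 counts in PBS-treated WT mice, 44 and 45 in HDM-treated WT mice, 38 and 171 in PBS-treated TG mice, and 45 and 56 in HDM-treated TG mice. Its mean was 14.1 ± 2.66 CPM in PBS-treated WT mice and 4.23 ± 0.416 CPM in HDM-treated WT mice, with no overlap. The PBS-treated TG libraries stood at 3.80 and 18.0 CPM, 1 below and 1 above the WT libraries, so that the log2 fold change of -0.38 ± 0.56 (SE) under PBS had no stable sign. Without replicate 1 of these TG mice it was 0.36, and without replicate 2 it was -1.88.

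Cidec, at chr6:113424634-113435760, encodes a protein that fuses fat droplets, and overlaps the gene Gm52871. It had 185 and 303 counts in PBS-treated WT mice, 124 and 125 in HDM-treated WT mice, 159 and 213 in PBS-treated TG mice, and 46 and 62 in HDM-treated TG mice. Its mean level was 21.6 ± 4.40 CPM in PBS-treated WT mice and 19.2 ± 4.64 CPM in PBS-treated TG mice, where the libraries overlapped. The level was 11.8 ± 1.04 CPM in HDM-treated WT mice and 5.83 ± 1.45 CPM in HDM-treated TG mice, which overlapped neither each other nor the PBS groups. Cidec therefore did not share the low level of Adipoq, Cfd and Plin1 in PBS-treated TG mice, although it is counted among the defining fat cell markers.

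Fabp4, at chr3:10204342-10208616, encodes the fatty acid binding protein aP2. It had 228 and 307 counts in PBS-treated WT mice, 191 and 155 in HDM-treated WT mice, 68 and 88 in PBS-treated TG mice, and 674 and 407 in HDM-treated TG mice. The mean was 24.0 ± 1.58 CPM in PBS-treated WT mice, 16.3 ± 1.06 CPM in HDM-treated WT mice, 8.05 ± 1.75 CPM in PBS-treated TG mice, and 66.0 ± 48.8 CPM in HDM-treated TG mice. No neighbours in this order overlapped, and both HDM-treated TG libraries, at 100.5 and 31.5 CPM, lay above all other libraries.

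Car3, at chr3:14863538-14872381, encodes carbonic anhydrase 3, an abundant cytosolic enzyme of fat cells and slow muscle, and overlaps the gene Gm41999. It had 1426 and 2160 counts in PBS-treated WT mice, 820 and 628 in HDM-treated WT mice, 641 and 621 in PBS-treated TG mice, and 380 and 276 in HDM-treated TG mice. Its mean level was 159.7 ± 23.8 CPM in PBS-treated WT mice, 68.3 ± 7.22 CPM in HDM-treated WT mice, 64.8 ± 0.972 CPM in PBS-treated TG mice, and 39.0 ± 24.9 CPM in HDM-treated TG mice. The libraries of PBS-treated WT mice lay above all others, while HDM-treated WT and PBS-treated TG libraries overlapped. Scaled by total count instead of TMM, the PBS-treated TG mean was 55.8 CPM.

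Pparg, at chr6:115360879-115490404, encodes the nuclear receptor that drives fat cell differentiation. It had 110 and 199 counts in PBS-treated WT mice, 84 and 120 in HDM-treated WT mice, 135 and 218 in PBS-treated TG mice, and 59 and 154 in HDM-treated TG mice. The mean ranged from 9.79 ± 3.22 CPM in HDM-treated WT mice to 18.3 ± 6.71 CPM in PBS-treated TG mice, and all neighbouring groups in the order of levels overlapped.

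Ucp1, at chr8:83290348-83298456, encodes the uncoupling protein through which brown fat makes heat. It had 8 and 22 counts in PBS-treated WT mice, 0 counts in each library of HDM-treated WT and PBS-treated TG mice, and 1 and 7 in HDM-treated TG mice. Its level in PBS-treated WT mice was 1.30 ± 0.704 CPM. With 3 counts taken for each library at 0, this was 4.21-fold above PBS-treated TG mice and 4.56-fold above HDM-treated WT mice. These limits leave out the counting error of the WT counts. With replicate 1 alone, which had 8 counts, these limits were 2.60-fold and 2.81-fold, and with replicate 2 alone 5.83-fold and 6.31-fold. The other brown fat markers were as scarce. Cidea, a droplet protein of brown fat, had 5 and 10 counts in PBS-treated WT mice, 2 and 8 in HDM-treated TG mice and 0 in the other 4 libraries. Elovl3, a fatty acid elongase, had 1 count in 2 libraries and 0 in the others, and Cox8b, a respiratory chain subunit also found in heart and muscle, had between 4 and 12 counts in every library.

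Under PBS, 5 of the 8 tested genes (Adipoq, Cfd, Car3, Plin1 and Fabp4) were lower in both TG libraries than in both WT libraries, and of all 14926 genes tested 20.3% were. The list was selected on this contrast, and 0.657% of all genes tested were past an adjusted p-value of 0.05. The log2 fold changes were -1.31 ± 0.17 (SE) for Car3, -1.59 ± 0.39 for Fabp4, -0.19 ± 0.35 for Cidec and 0.41 ± 0.40 for Pparg, beside those given above. The median over the 8 genes was -1.45, against 0.00 over all genes tested. In whole lung RNA, fewer fat cells and less of these transcripts per fat cell cannot be told apart.

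HDM-treated WT mice also had lower levels than PBS-treated WT mice for 7 of the 8 genes, Pparg being the exception, with no overlap between the libraries, as had 24.4% of all genes tested. The log2 fold change was -1.73 ± 0.50 (SE) for Plin4, -1.37 ± 0.66 for Adipoq, -1.28 ± 0.49 for Plin1, -1.23 ± 0.18 for Car3, -1.16 ± 0.35 for Cfd, -0.88 ± 0.38 for Cidec, -0.56 ± 0.34 for Fabp4 and -0.48 ± 0.46 for Pparg. The median was -1.20, against 0.02 over all genes tested, of which 6.74% were past the adjusted threshold. This comparison and the one between genotypes under PBS share the PBS-treated WT libraries, which were the highest of the 8 for Cfd, Car3, Lep and Ucp1, so that no test is given for the 10 genes.

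**Figure D2:**
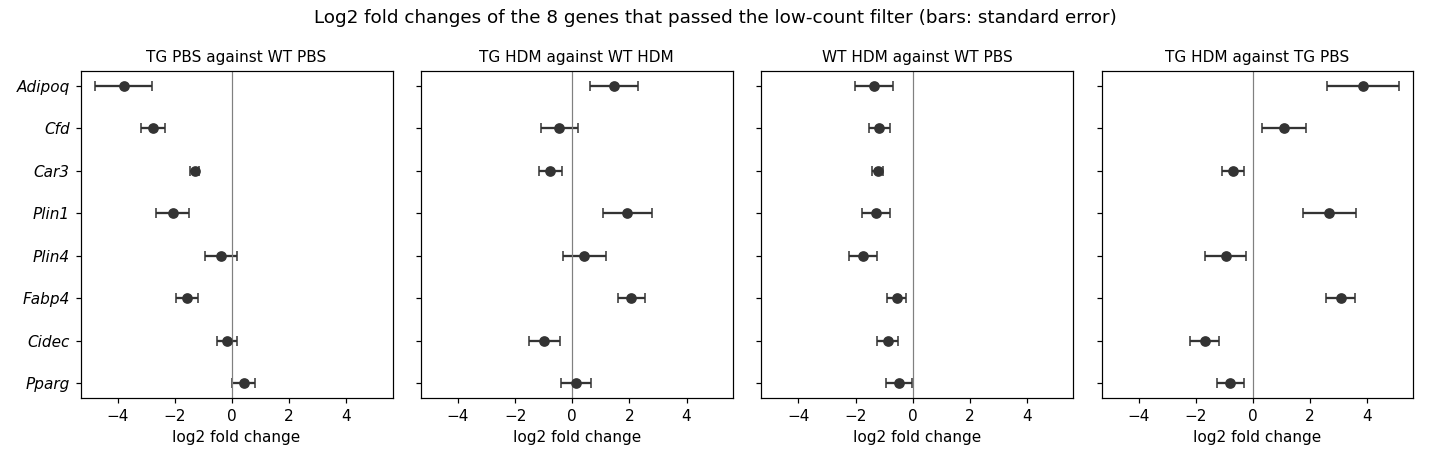
Log2 fold change with its SE (horizontal axis) of the 8 tested genes in the 4 comparisons, each fitted to its own 4 libraries. The genes lie to the left of 0 in HDM-treated against PBS-treated WT mice, from -1.73 to -0.48, and on both sides of 0 in the comparisons that hold the HDM-treated TG pool.

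The comparison of TG with WT mice under HDM asked whether the genotypes also differed in allergen-treated lungs. It used none of the PBS libraries, whose difference put Adipoq, Cfd, Car3, Plin1 and Fabp4 forward. The list as a whole was chosen with earlier results of these data known, so that the test is not fully independent of that choice. Of all 15191 genes tested, 2.44% were past an adjusted p-value of 0.05, and of the 8 fat cell genes 1 was. Fabp4 was higher in the libraries labelled TG by 2.06 ± 0.47 on the log2 scale (SE; adjusted p = 0.0420, edgeR's quasi-likelihood test). The call held with DESeq2 (adjusted p = 0.000512), without the low-count filter (adjusted p = 2.8e-07), with the replicate number as a block (adjusted p = 0.00471) and with all 8 libraries fitted together (adjusted p = 0.00959). It was lost with median-ratio size factors (adjusted p = 0.0545), where the log2 value was 2.05, and with an offset for transcript length, where the log2 fold change was 1.51 (adjusted p = 0.204). It was also lost without replicate 1 of the TG mice, where the log2 fold change was 0.97 (adjusted p = 0.342), and without either WT library, where the log2 fold change was 2.11 and 2.01 (adjusted p = 0.391 and 0.360). Over all alternatives the adjusted p-value of Fabp4 lay between 1.3e-11 and 0.391.

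The other 7 genes did not pass the threshold under HDM. Plin1 had a log2 fold change of 1.92 ± 0.85 (SE; adjusted p = 0.290), Adipoq of 1.45 ± 0.84 (adjusted p = 0.424), Cidec of -0.98 ± 0.55 (adjusted p = 0.411) and Car3 of -0.77 ± 0.40 (adjusted p = 0.370), by the same test. Cfd at -0.46 ± 0.64 (adjusted p = 0.778), Plin4 at 0.42 ± 0.74 (adjusted p = 0.833) and Pparg at 0.13 ± 0.52 (adjusted p = 0.939) had smaller differences. The libraries did not overlap for 3 of the 8 genes, with Car3 and Cidec lower and Fabp4 higher in TG mice, while 48.2% of all genes tested did not overlap in 1 direction or the other. The median of the 8 log2 fold changes was 0.28, against 0.01 over all genes.

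The sign of several of these values depended on the library of the TG pool that was kept. With replicate 2 alone, Plin1 was higher than in WT mice by 2.81 on the log2 scale (adjusted p = 3.3e-05) and Car3 was lower with -1.65 (adjusted p = 0.000794). With replicate 1 alone, Plin1 stood at -1.04 (adjusted p = 0.590), Car3 at -0.21 (adjusted p = 0.737) and Adipoq at -0.12 (adjusted p = 0.971), while Fabp4 stood at 2.68 (adjusted p = 1.3e-11). In these fits of edgeR, the single TG library is assumed to vary like the WT libraries. Fabp4 was the only one of Fabp4, Plin1 and Adipoq with a positive log2 fold change in both fits.

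HDM-treated TG mice were also set beside PBS-treated TG mice. Adipoq and Fabp4 were higher and Car3, Cidec and Pparg were lower after HDM with no overlap between the libraries, a total of 5 of the 8 genes, as against 56.8% of all genes tested. Fabp4 stood at 6.81 and 9.29 CPM under PBS and at 100.5 and 31.5 CPM after HDM, a log2 fold change of 3.07 ± 0.51 (SE). Adipoq had a log2 fold change of 3.86 ± 1.26, Plin1 of 2.67 ± 0.93, Cfd of 1.09 ± 0.77, Car3 of -0.70 ± 0.40, Pparg of -0.79 ± 0.47, Plin4 of -0.96 ± 0.73 and Cidec of -1.70 ± 0.50. Without replicate 2 of the HDM-treated TG mice, Plin1 was at -0.29, Cfd at -0.36 and Adipoq at 2.27, and without replicate 1, Fabp4 was at 1.97 and Car3 at -1.60. Without replicate 1 of the PBS-treated TG mice, the remaining library had no Adipoq count, and no fold is given. The median of the 8 genes was 0.19, against 0.03 over all genes tested, of which 13.8% were past the adjusted threshold.

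The libraries of HDM-treated TG mice were made from the same pooled RNA, yet Plin1 had 19 counts in replicate 1 (95% exact Poisson interval 11.4 to 29.7) and 541 in replicate 2 (496.4 to 588.6). At the level of replicate 2, the smaller replicate 1 would have had 281.2 counts. The log2 ratio of replicate 2 to replicate 1 was 3.80 for Plin1, and a ratio as high was found for 54 of 13409 genes, or 0.403%, when only pairs with 50 or more counts were taken. It was 2.25 for Adipoq and 2.09 for Cfd, reached by 1.66% and 2.01% of these genes. Fabp4 and Car3 went the other way with log2 ratios of -1.67 and -1.40, and 2.11% and 3.36% of the genes had ratios as low. Cidec at -0.50, Plin4 at -0.61 and Pparg at 0.43 were within 2-fold. Thus the fat cell genes did not shift together between these libraries, and 5 of the 8 differed more than 2-fold, 3 in one direction and 2 in the other, where 23.2% of all genes tested did (16.7% of those with 50 or more counts).

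In the PBS-treated TG pool, Plin4 had a log2 ratio of 2.19, reached by 1.07% of 12924 genes, Plin1 one of 1.45, and Adipoq had 11 counts in replicate 1 and 0 in replicate 2. In both WT pools, all 8 genes agreed within 2-fold, and 15.3% of all genes tested did not in PBS-treated and 19.9% in HDM-treated WT mice. The SD of the log2 ratio over all genes tested was 0.793 in PBS-treated WT, 0.939 in HDM-treated WT, 0.927 in PBS-treated TG and 1.06 in HDM-treated TG mice, so that the TG pool under HDM had the widest spread over all genes as well.

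**Figure D3:**
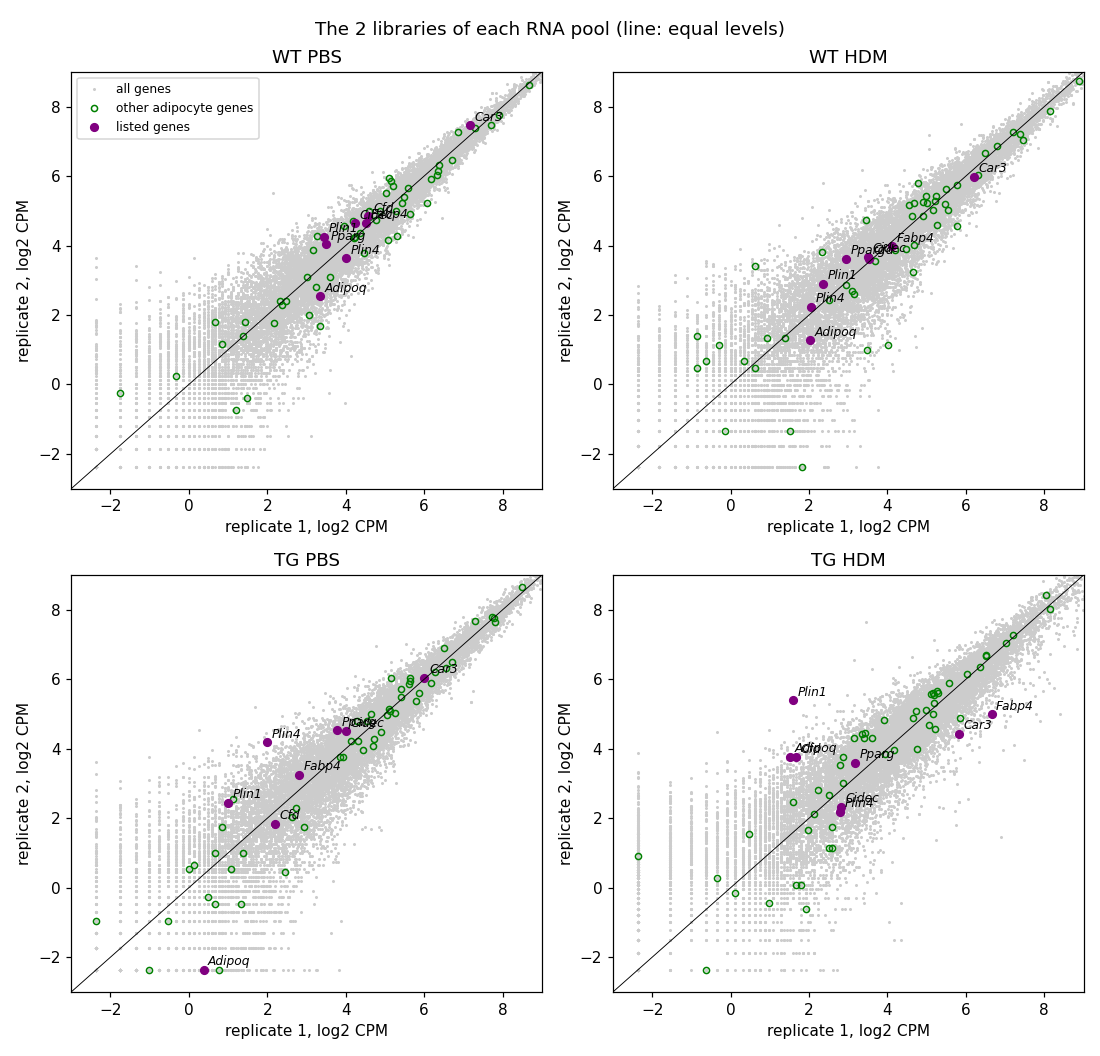
Log2 CPM of the genes passing the low-count filter in replicate 1 (horizontal axis) and replicate 2 (vertical axis) of each pool, with the fat cell genes filled and the other adipocyte genes as open circles. Genes beyond the limits of the axes, such as Scd1, are not shown. Plin1, Adipoq and Cfd lie above the line of equal levels and Fabp4 and Car3 below it in HDM-treated TG mice, while all 8 genes lie near the line in both WT pools.

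Beside the list, 58 other genes active in fat cells were counted. They covered secreted factors, droplet and lipolysis proteins, lipid synthesis, uptake and receptors, transcription factors and brown fat genes. Some stood far above Adipoq in PBS-treated WT lungs, with means of 2415 CPM for Scd1, 862 for Cd36 and 400 for Fasn, against 7.83 for Adipoq. Others stood lower, such as Adig at 0.377 CPM. How much of these counts came from fat cells was not tested, so that their medians do not describe fat cells alone. Under HDM, 52 of them were tested between the genotypes and 1 passed the threshold, near the 2.44% of all genes. Me1, the malic enzyme that supplies NADPH for fatty acid synthesis, was lower in the libraries labelled TG, with a log2 fold change of -0.90 ± 0.21 (SE; adjusted p = 0.0468, edgeR). It stood at 166.0 and 147.8 CPM in the WT libraries and at 81.3 and 81.6 CPM in the TG libraries. The call was lost with the length offset (adjusted p = 0.0793) and without either WT library (adjusted p = 0.447 and 0.321), and the adjusted p-value lay between 0.00243 and 0.447 over the alternatives. The median over the 52 genes was -0.12, with 22 positive and 30 negative values.

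Under PBS, 50 of the 58 genes were tested between the genotypes and 2 passed the threshold, against 0.657% of all genes, and both also stand in the study's own lists for this contrast. Acsl1, the acyl-CoA synthetase that activates fatty acids, was lower in TG mice at -1.13 ± 0.23 (SE; adjusted p = 0.0243, edgeR), with 81.5 and 70.5 CPM in WT and 38.0 and 32.2 CPM in TG libraries. This call was lost with the replicate block (adjusted p = 0.0972), with all 8 libraries fitted together (adjusted p = 0.0753) and without replicate 1 of the WT mice (adjusted p = 0.296), within a range of 0.000632 to 0.296 over the alternatives. Angptl4, a secreted inhibitor of lipoprotein lipase that is also made by endothelium, was higher at 1.42 ± 0.23 (adjusted p = 0.00282), with 32.4 and 45.3 CPM in WT and 90.4 and 119.5 CPM in TG libraries. The median of the 50 genes was -0.08. That of the 8 listed genes was -1.45, but the list was selected on this contrast, so that setting these medians side by side decides nothing. Pck1, the glyceroneogenic enzyme of white fat, had a log2 fold change of -2.28 ± 0.61 that did not pass the threshold (adjusted p = 0.120). Thrsp had a log2 fold change of -2.69 ± 0.65 (SE) that did not pass either (adjusted p = 0.0754, edgeR). Lipe, the hormone-sensitive lipase of fat cells, stood at 27.0 and 26.3 CPM in PBS-treated WT libraries. In PBS-treated TG libraries Lipe stood at 22.9 and 27.9 CPM, and the groups overlapped. Of the 50 genes, 27 had negative and 23 had positive values.

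In HDM-treated against PBS-treated WT mice, 4 of 51 tested genes passed, and 3 of these were lower, a share near the 6.74% of all genes. Pck1 had a log2 fold change of -3.21 ± 0.65 (SE; adjusted p = 0.00850, edgeR), with 87 and 175 counts under PBS and 12 and 14 under HDM. Npr3, the clearance receptor for natriuretic peptides, was lower at -1.60 ± 0.17 (adjusted p = 3.6e-05) and Acsl1 at -0.92 ± 0.22 (adjusted p = 0.0230), and Me1 was higher at 1.11 ± 0.18 (adjusted p = 0.00141). The Acsl1 call was lost with all 8 libraries fitted together and without replicate 1 of the PBS-treated mice, and the Pck1 call without replicate 2 of these mice, with adjusted p-values of up to 0.174 and 0.143. The median of the 51 genes was -0.18.

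In TG mice, 4 of 51 tested genes passed between HDM and PBS, and 3 were lower after HDM, against 13.8% of all genes tested in either direction. Npr3 was lower at -2.34 ± 0.24 on the log2 scale (SE; adjusted p = 7.4e-05, edgeR), Angptl4 at -1.65 ± 0.27 (adjusted p = 0.00194) and Cd36 at -0.96 ± 0.16 (adjusted p = 0.00235). Plin2, the perilipin of droplets in many cell types including macrophages, was higher at 0.84 ± 0.25 (adjusted p = 0.0429). The Plin2 call was lost with the length offset and without either PBS library or replicate 2 of the HDM-treated mice (adjusted p up to 0.315). Cd36 was lost without either PBS library (adjusted p up to 0.106), and Angptl4 without replicate 2 of these (adjusted p = 0.0912). The median of the 51 genes was -0.15. Within the HDM-treated TG pool, 5 of 53 other fat cell genes were at least 2-fold higher in replicate 2 (Plin5, Lipe, Agpat2, Klf15 and Adig) and 7 were at least 2-fold higher in replicate 1 (Retn, Pck1, Thrsp, Slc2a4, Acvr1c, Zic1 and Cpt1b). Together these were 22.6% of the 53, near the 23.2% of all genes, and in the HDM-treated WT pool 15 of the 53 differed as much.

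Summed CPM of marker genes was taken for fat cells and for other tissues and cells, which does not measure how much of them was present. The 5 defining fat cell markers (Adipoq, Plin1, Cidec, Lep and Cfd) summed to 64.9 and 78.3 CPM in PBS-treated WT mice, 31.1 and 34.1 CPM in HDM-treated WT mice, 23.2 and 31.1 CPM in PBS-treated TG mice, and 15.4 and 73.6 CPM in HDM-treated TG mice. Lep was at 0 in 6 libraries and Adipoq in 1, and 3 of the 5 markers had a count in every library. Cidec made up 68.5% and 72.2% of the sum in PBS-treated TG mice. Without it the sums were 46.4 and 53.5 CPM in PBS-treated WT, 20.04 and 21.52 CPM in HDM-treated WT, 7.31 and 8.65 CPM in PBS-treated TG, and 8.50 and 68.8 CPM in HDM-treated TG mice. The lung libraries thus held defining fat cell transcripts in all groups, at low level.

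Heart muscle markers, all 8 of which were counted in every library, summed to between 328.9 and 384.0 CPM in PBS-treated WT mice and to between 163.1 and 201.4 CPM in PBS-treated TG mice. They summed to between 212.9 and 230.2 CPM in HDM-treated WT mice and between 96.5 and 119.5 CPM in HDM-treated TG mice. The 11 thymocyte markers summed to 173.1 and 192.2 CPM in PBS-treated WT mice, to between 61.7 and 66.1 CPM in PBS-treated TG mice, and to between 78.9 and 112.6 CPM in the HDM libraries. These markers did not go together. Rag1 had 189 and 371 counts in PBS-treated WT mice and at most 7 in any other library. Rag2 had 62 and 57 against at most 3, and Dntt 30 and 23 against at most 5. A total of 7 of the 11 had a count in every library, among them Tcf7 at between 21.6 and 35.1 CPM outside PBS-treated WT mice. The sum of the 14 skeletal muscle markers was higher in TG than in WT mice under PBS, with 72.8 and 85.0 CPM in WT and 288.9 and 326.6 CPM in TG mice, and summed to between 145.6 and 236.5 CPM in the HDM libraries. In PBS-treated mice, 12 of the 14 were higher in both TG libraries, Myh7, the slow myosin also found in heart, was lower at 20.02 and 18.68 CPM against 28.96 and 35.46 CPM, and Tnni1 was at 0 in all libraries. The part of these tissues in the levels of the fat cell genes was not tested.

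The neutrophil list of 8 genes summed to 458.7 and 437.4 CPM in PBS-treated WT mice and to between 183.7 and 270.7 CPM in the other libraries. Not every member followed the sum, as Ltf stood at 21.7 and 16.9 CPM in PBS-treated WT mice and at 22.2 and 24.3 CPM in HDM-treated WT mice. The 8 alveolar macrophage markers summed to between 557.7 and 738.2 CPM in the PBS libraries. They summed to 9635 and 9912 CPM in HDM-treated WT mice and to 3842 and 4878 CPM in HDM-treated TG mice, where Chil3 made up most of the sum. In WT mice, Atp6v0d2, Itgax and Mrc1 were also higher in both HDM libraries than in both PBS libraries. Siglecf, Marco and Fabp1 were lower, Marco with 8.22 and 7.60 CPM under PBS and 2.15 and 1.01 CPM under HDM. Markers of lung endothelium, in whose capillaries Fabp4 and Cd36 are also expressed, were 9 genes. They summed to 1249 and 1548 CPM in HDM-treated TG mice, the lowest of the 4 groups, but its members did not go together. Cdh5 stood at 397.8 and 537.9 CPM there, against 1026 and 1016 CPM in PBS-treated WT mice. Aqp1 stood at 198.4 and 180.0 CPM against 142.2 and 141.4 CPM, and Car4 at 61.4 and 83.3 CPM against 48.7 and 57.0 CPM. In PBS-treated TG mice, Cdh5 stood at 1151 and 1184 CPM, above HDM-treated TG mice. Aqp1 at 245.2 and 188.8 CPM and Car4 at 81.1 and 76.0 CPM overlapped with HDM-treated TG mice. A list of 5 genes for stromal cells of fat, of which Dlk1 was at 0 throughout, summed to between 414.3 and 456.7 CPM in the PBS libraries of both genotypes. It summed to between 242.2 and 289.2 CPM in the HDM libraries. Pdgfra, Dcn and Dpp4 made up most of this sum, with 174.6, 149.2 and 93.8 CPM in replicate 1 of PBS-treated WT mice, against 6.61 CPM for Pi16. How much of these counts came from the stroma of fat was not tested, so that the sum does not describe that stroma alone. Mesothelial markers summed to between 85.7 and 161.3 CPM and alveolar type 2 markers to between 11756 and 21625 CPM over the 8 libraries. The part of these cell types in the levels of the fat cell genes was not tested.

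**Figure D4:**
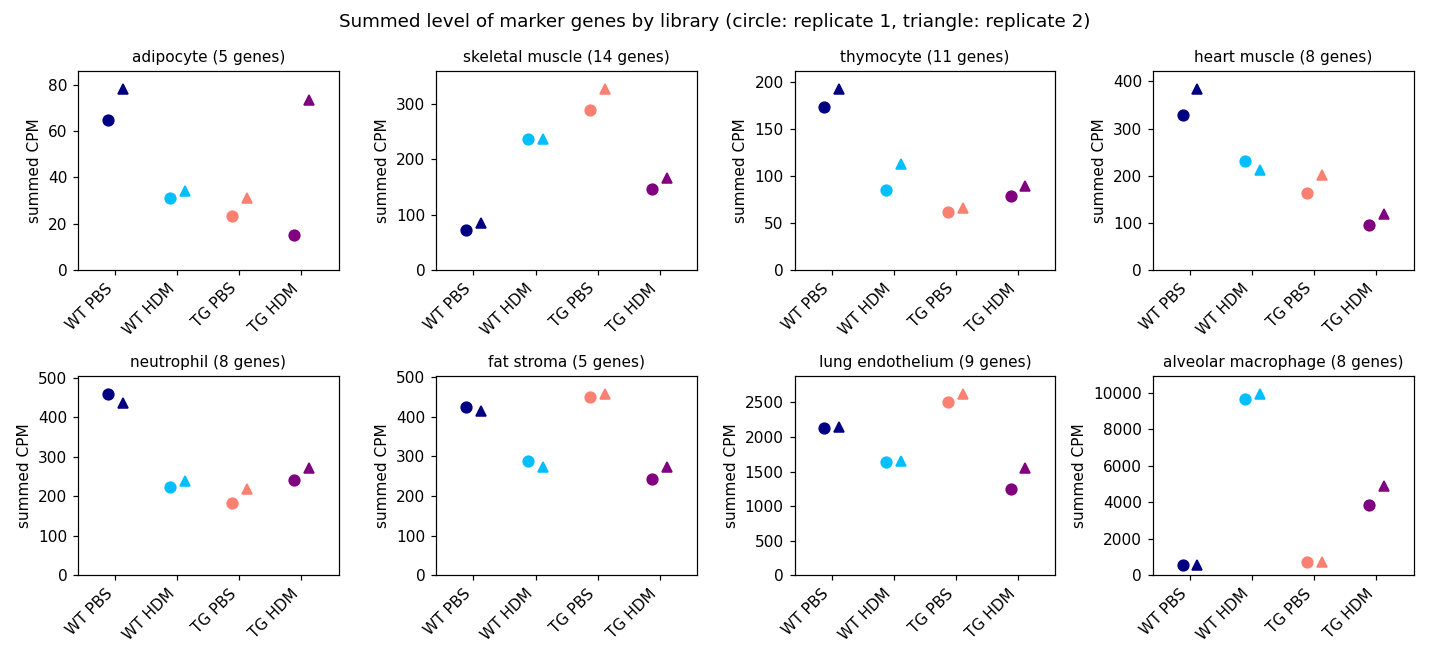
Summed CPM (vertical axis, linear, from 0) of 8 marker lists in the 2 libraries of each group (circle, replicate 1; triangle, replicate 2). The fat cell sum is 64.9 and 78.3 CPM in PBS-treated WT mice and 15.4 and 73.6 CPM in the 2 libraries of HDM-treated TG mice, where Plin1 alone is at 2.83 and 41.9 CPM. The sums of the other 7 lists differ less in proportion between these 2 libraries. Single members of those lists differ more, such as Myl4 of heart muscle at 3.88 and 13.4 CPM.

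To find genes with a similar pattern, each gene's log2 CPM over the 8 libraries was correlated with the mean log2 CPM of Adipoq, Plin1, Cidec and Cfd, the defining markers that passed the low-count filter. Cidec itself had r = -0.015 with this mean, so that the pattern is mainly that of the other 3. The 8 points come from 4 pools and share depth and pool composition, so that the values are a description. The highest Pearson r of 15758 genes were those of Rgs11 (0.981), Sectm1b (0.963), Nmnat3 (0.951), Pisd-ps1 (0.935), D030018L15Rik (0.934), Anapc1 (0.930), Acss2 (0.928), Emilin2 (0.925), Usp21 (0.925) and Trim41 (0.923). Sectm1b, Nmnat3 and D030018L15Rik were at 0 in at least 1 library. None of these 10 was among the 58 other fat cell genes, of which Acsl1 had the highest r with 0.855 at rank 40. Rgs11 stood at 6.01 and 6.70 CPM in PBS-treated WT mice, 2.50 and 1.79 CPM in PBS-treated TG mice, and 2.54 and 5.97 CPM in the replicates of HDM-treated TG mice.

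Among the fat cell genes themselves, likeness over the 8 libraries was uneven. Adipoq had r = 0.725 with Cfd and 0.605 with Plin1, and Cfd had 0.716 with Plin1. Cidec had r = -0.432 with Adipoq and 0.198 with Cfd, and its highest value was 0.822 with Car3. Fabp4 had r = 0.511 with Adipoq and -0.575 with Cidec. The values of Adipoq, Cfd and Plin1 with each other include the gap between the replicates of HDM-treated TG mice. In the other 3 pools, Adipoq was higher in replicate 1 and Plin1 in replicate 2.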

How the data were processed

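Lung RNA of 4 mice was pooled per group and 2 libraries were sequenced from each of the 4 pools. After amplification of the RNA, single-end reads were mapped by the authors to mm10 (GRCm38) using TopHat, and coding-region reads were totalled per gene in R. Bcl2fastq, CASAVA 1.8, TopHat and DESeq are named in the submitters' processing notes. The deposited values are raw counts for 23469 genes under Entrez identifiers, without normalization. Symbols and positions came from RefSeq for 23372 of them, and transcript length from GENCODE for 21145. The fat cell genes, the other fat cell genes and the marker lists were chosen with earlier results of these data known.

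Samples were grouped by their titles. Each comparison was fitted on its own 4 libraries with edgeR 4.0.16 (R 4.3.3): quasi-likelihood test, TMM, filterByExpr with a count minimum of 10, and Benjamini-Hochberg adjustment over all genes tested, with a threshold of 0.05. The SE was obtained as the absolute log2 fold change over the root of F. Log2 CPM had a prior count of 2, and a bound against 0 used 3 counts per library. The scripts were tested on simulated data. Intervals cover counting error only, and bounds cover only that of the libraries at 0. The genes named are the 10 listed ones, up to 5 other fat cell genes per direction past the threshold, the 10 with the highest likeness, Ddah1, Xist and Ddx3y, and the marker lists. Lipe, Pck1 and Thrsp under PBS and the genes named between replicates were chosen after their values were seen. So were the genes whose levels are set beside Adipoq, and the single genes named from the marker lists. Ly6g of the neutrophil list is not analysed here. Alternatives were no low-count filter, RLE (median-ratio) scaling, DESeq2 1.42.0, the replicate number as a block, all 8 libraries together, totals that omit 12 genes of ribosomal RNA and haemoglobin, an offset for transcript length (loess, span 0.5), and each library left out. The fat cell sum without Cidec and the limits of Lep and Ucp1 by single library were added after seeing the data.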

Additional observations from a re-analysis of the deposited data

Results flagged for a closer look

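Fabp4 differed in opposite directions between the genotypes under the 2 treatments, with no overlap of the libraries in either. The TG mean minus the WT mean was -15.9 CPM under PBS and 49.7 CPM under HDM. For Ucp1 the same differences were -1.30 CPM and 0.346 CPM, on at most 22 counts per library. For both genes, sex and treatment cannot be told apart in this change of the genotype difference. In HDM-treated TG mice Ucp1 had 1 count in replicate 1, under the limit of 3 counts, so that no direction can be read from that library. The difference between HDM-treated and PBS-treated mice, in which sex and treatment cannot be told apart, was likewise of opposite sign in the 2 genotypes for Adipoq and Fabp4. For Ucp1 it was so by the means only, with 1 and 7 counts in HDM-treated TG mice. Adipoq differed by -4.80 CPM between HDM-treated and PBS-treated WT mice and by 7.54 CPM in TG mice. Fabp4 differed by -7.63 CPM in WT mice and by 57.99 CPM in TG mice, and Ucp1 by -1.30 CPM and 0.346 CPM. For Adipoq and Fabp4, every library of a group lay on the same side of the other group. For Ucp1 in HDM-treated TG mice this cannot be read, since replicate 1 had 1 count. The differences between these effects were not tested. Fabp4 and Adipoq in TG mice rest on the HDM-treated pool whose libraries differed by 3.19-fold and 5.02-fold.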

How the results depend on the processing

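The count of fat cell genes past the threshold between TG and WT mice under HDM was 1, but 0 with RLE size factors or the length offset, 2 without the low-count filter, and between 0 and 2 with a library left out. The median log2 fold change of the 8 genes was 0.28, and between -0.16 and 0.52 with a library left out, the negative value being without replicate 2 of the TG mice. Over all genes, the 370 calls became 922 with DESeq2, 1055 without the filter, 771 with all 8 libraries, 179 with the length offset, and between 6 and 1595 with a library left out. The 1 call among other fat cell genes became 4 with DESeq2, 5 without the filter, 2 with all 8 libraries and 0 with the length offset, and was between 0 and 6 with a library left out. Pparg changed sign with the length offset (-0.081). With a library left out, the log2 fold change lay between -0.20 and 0.51 for Pparg (negative without WT replicate 1 or TG replicate 2), between -1.91 and 0.21 for Cfd (positive without TG replicate 1), and between -0.12 and 2.17 for Adipoq and -1.04 and 2.81 for Plin1 (both negative without TG replicate 2).

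Between the genotypes under PBS, the 98 calls became 223 with DESeq2 and 306 without the filter, and 75 to 432 with a library left out. The 2 other fat cell genes became 4 with DESeq2, 4 without the filter and 1 with all 8 libraries, and 1 to 4 with a library left out. With a library left out, Cidec lay between -0.45 and 0.053 (positive without WT replicate 2 or TG replicate 1), Plin4 between -1.88 and 0.36 (positive without TG replicate 1), and Pparg between -0.018 and 0.75 (negative without TG replicate 2). For HDM in WT mice, 1020 calls became 1588 without the filter and 652 to 1661 with a library left out, and the 4 other fat cell genes became 7 with DESeq2, 7 without the filter and 3 to 10. For HDM in TG mice, 2079 calls became 277 to 2676, and the 4 other genes became 7 with all 8 libraries and 1 to 7. The median of 0.19 became -0.18 with the length offset and lay between -0.33 and 0.74 with a library left out. Plin4 lay between -1.70 and 0.56 (positive without PBS replicate 2), and Cfd between -0.36 and 1.77 and Plin1 between -0.29 and 3.65 (both negative without HDM replicate 2). The cause of these changes was not tested.

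Replicates with the same number did not deviate together (r between -0.022 and 0.016), so that the numbers do not pair the libraries. With the replicate number as a block, the calls under HDM were 625 and those under PBS 45, with 1 other fat cell gene in the latter.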
